A study of Mus musculus with 8 samples.

Results

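The genes described here build the hair shaft and its inner root sheath. They comprise 53 listed genes, chosen by name as keratins, keratin-associated proteins, other structural proteins and regulators of these layers, and 45 of them had a probe set annotated to that gene alone among 18193 genes measured that way. Where a gene had several such probe sets, the one with the highest mean over the arrays was read. The 45 comprised 10 inner root sheath genes, the companion layer keratin Krt75, 11 shaft keratins, 16 keratin-associated proteins, 4 other shaft and sheath proteins and 3 regulators. Krtap3-2, Krtap3-3 and Krtap6-1 share their probe sets with other genes and were left out, and Krt85, Krtap8-2, Krtap16-1, Dsg4 and Crisp1 had no probe set to read. Krtap8-2 is listed by RefSeq as an older symbol of Krtap19-5, and Krtap16-1 as one of Krtap19-2 on chromosome 16. Krtap16-1 is also the current symbol of a different gene, on chromosome 11. Krtap19-2 and Krtap19-5 were not counted as members and had log2 fold changes of -0.04 and -0.02.

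Levels were measured on 8 Affymetrix mouse arrays, single-colour arrays of short oligonucleotide probes, in whole dorsal skin of B6D2/F1 mouse embryos at embryonic day 18.5. The GR-null group held 4 arrays (label numbers 5, 17, 25 and 26) from GR-/- embryos, which lack the glucocorticoid receptor. The wild-type group held 4 arrays (4, 6, 28 and 29) from GR+/+ littermates. The labels neither describe the disrupted allele nor say whether arrays came from different embryos, so p-values measure the spread between these samples, which may in part be technical. All values are log2 levels made with RMA (robust multi-array average), and a positive log2 fold change means a higher level in GR-null skin.

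Hair is made by follicles that grow down from the epidermis before birth. In the bulb of a follicle, dividing matrix cells feed concentric layers: the shaft in the centre, the inner root sheath that moulds it, and the companion layer between that sheath and the outer root sheath. Each layer fills with its own type I and type II keratins, which pair into filaments. In the shaft the filaments are embedded in keratin-associated proteins, small proteins rich in cysteine or in glycine and tyrosine. In the sheath they are bound by trichohyalin (Tchh), whose arginines are deiminated by enzymes such as Padi3.

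The promoters of 3 inner root sheath keratins and of Krtap13 with a neighbouring gene, all with large differences between arrays, are shown to let the gene groups below be compared by sequence. They are RefSeq windows of assembly GRCm38.p6 from 250 bases before to 50 bases after the annotated start, written 5′ to 3′. In the inner root sheath keratin genes capitals mark the TATA box letters TATAAA, the glucocorticoid response element hexamer TGTTCT and the Msx homeodomain core TAATTG, on either strand.
Krt25 (chr11:99322902-99323201, - strand): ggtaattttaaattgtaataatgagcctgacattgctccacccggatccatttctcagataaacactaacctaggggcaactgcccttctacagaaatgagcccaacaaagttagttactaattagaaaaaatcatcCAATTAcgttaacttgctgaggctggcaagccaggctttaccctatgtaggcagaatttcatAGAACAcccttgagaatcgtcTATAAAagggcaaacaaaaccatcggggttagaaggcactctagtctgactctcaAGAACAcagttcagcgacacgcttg
Krt27 (chr11:99351069-99351368, - strand): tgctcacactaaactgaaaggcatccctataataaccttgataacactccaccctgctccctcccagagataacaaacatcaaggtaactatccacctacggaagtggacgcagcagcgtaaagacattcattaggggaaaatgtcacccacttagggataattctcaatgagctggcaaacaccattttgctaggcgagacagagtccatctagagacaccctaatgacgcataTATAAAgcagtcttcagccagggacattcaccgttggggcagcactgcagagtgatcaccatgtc
Krt71 (chr15:101743048-101743347, - strand): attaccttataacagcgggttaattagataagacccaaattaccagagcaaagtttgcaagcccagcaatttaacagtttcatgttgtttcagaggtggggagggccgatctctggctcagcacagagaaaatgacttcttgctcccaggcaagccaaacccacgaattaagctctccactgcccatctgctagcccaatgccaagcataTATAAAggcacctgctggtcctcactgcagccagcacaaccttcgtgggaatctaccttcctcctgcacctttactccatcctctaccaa
In the keratin-associated protein gene Krtap13 and its neighbour 2310034C09Rik, capitals mark the longest run of bases that both windows share.
Krtap13 (chr16:88751579-88751878, - strand): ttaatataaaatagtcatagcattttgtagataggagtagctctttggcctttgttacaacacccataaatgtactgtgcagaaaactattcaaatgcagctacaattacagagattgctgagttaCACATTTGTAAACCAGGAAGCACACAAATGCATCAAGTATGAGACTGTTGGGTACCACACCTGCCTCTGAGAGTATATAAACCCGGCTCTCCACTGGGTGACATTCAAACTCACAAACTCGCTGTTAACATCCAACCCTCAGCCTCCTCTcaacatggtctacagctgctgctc
2310034C09Rik (chr16:88758597-88758896, + strand): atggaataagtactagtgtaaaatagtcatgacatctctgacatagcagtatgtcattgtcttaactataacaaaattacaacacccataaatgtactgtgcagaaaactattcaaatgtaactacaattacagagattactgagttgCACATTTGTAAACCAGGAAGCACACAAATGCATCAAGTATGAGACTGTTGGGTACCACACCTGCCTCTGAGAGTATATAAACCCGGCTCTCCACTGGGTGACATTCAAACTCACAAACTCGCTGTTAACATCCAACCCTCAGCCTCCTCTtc

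The TATA box letters began 30 bases before the start in Krt25, 15 in Krt27 and 40 in Krt71. Of the 38 measured members with a window, 27 held TATAAA on either strand, against 14.2% of all 27025 promoters. By role they were 7 of 10 inner root sheath genes, 5 of 7 shaft keratins and 14 of 16 keratin-associated proteins. The core TAATTG was in 12 of the 38, against 8.15% of promoters, and the LEF/TCF core CTTTGA in 11, against 16.2%. The hexamer TGTTCT was in 6, against 19.0%, and the full palindromic element in 0 of the 38, against 0.0037%. None of the 4 shorter motifs contains another, and both strands were searched. These are matches of letters in a short window and not binding sites.

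Array GR-null 17 stood apart from the rest in these genes. It was the highest of the 8 arrays for 18 of the 45 members (40%), against 15.0% of all genes. It exceeded the other 7 arrays by over 1 log2 in 11 members, against 33 of all 18193 genes (0.181%). Ranked by that gap, 7 of the first 8 genes were members: Krt25, Krt27, Tchh, Krt71, Krt28, Krt35 and Krt73. Prr9, a proline-rich protein gene that is no member, came first, with 9.98 log2 in GR-null 17 and 4.76 to 5.06 in the other 7 arrays. The gaps of single arrays describe these libraries and have no replicate.

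GR-null 17 also differed in what else it held. Its mean over 22 skeletal muscle markers was 11.96 log2, against 11.22, 11.52 and 11.41 in GR-null 5, 25 and 26, and against 11.98 to 12.15 in the wild-type arrays. Xist, the RNA of the inactive X chromosome, read 12.61 log2 in GR-null 17 and 13.22 in wild-type 6, with at most 6.38 elsewhere. The Y-linked Eif2s3y read 3.31 in GR-null 17 and 3.43 in wild-type 6, and 8.83 to 9.51 in the other arrays. By these genes GR-null 17 and wild-type 6 were female and the other arrays male, so the arrays of each group did not all come from the same embryo. Wild-type 6 was the highest array for 3 members, and for 0 by over 1 log2. In all 8 arrays the epidermal keratins Krt5, Krt14, Krt1 and Krt10 lay between 12.45 and 14.80 log2. Other markers of the interfollicular epidermis were not all so even. Flg, Lor and Ivl had log2 fold changes of -2.35, -0.48 and -0.99 (limma, adjusted p = 0.0339, 0.0379 and 0.0742), and Krt15 had 0.21 (adjusted p = 0.610). Nr3c1, the receptor gene, read 7.66, 8.01, 8.19 and 7.97 log2 in GR-null 5, 17, 25 and 26, against 9.93, 9.68, 9.74 and 9.92 in wild-type 4, 6, 28 and 29, at its second brightest probe set. The groups did not overlap at its 3 brightest probe sets, with GR-null lower (log2 fold changes -0.84, -1.86 and -2.70), and the means differed by 0.27, 0.04 and 0.35 at the 3 dimmer ones. In whole skin, fewer cells of a type and less RNA per cell cannot be told apart.

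Across the whole group, members were called at about the rate of all genes. With 4 arrays per group, a member that was not called may still differ between the genotypes. Limma's moderated test, with Benjamini-Hochberg adjustment over all genes and a threshold of 0.05, called 1 of 45 members, against 2.96% of all genes. The call was Foxq1, higher in GR-null skin, against 1.40% of genes called higher. It called 0 members lower, against 1.56%. At an unadjusted p under 0.05 limma gave 5 higher, against 10.5% of genes, and 2 lower, against 11.1%. The median log2 fold change was 0.09 over the 45 members and -0.0045 over all genes. Without GR-null 17, 4 members passed, against 9.01% of genes. All 4 were higher (3.80% of genes): Foxq1, Msx2, Krtap13 and Krt34. In that fit too 0 were lower, against 5.21%. With the muscle marker mean as a covariate, 1 member was higher (Msx2, log2 fold change 1.88), against 0.0879% of genes, and 0 lower, against 0.0824%. That mean did not overlap between the groups (11.22 to 11.96 log2 in GR-null, 11.98 to 12.15 in wild-type). The fit with it therefore cannot tell genotype and muscle level apart, and its fold changes are extrapolated. Foxq1 did not keep its call without GR-null 5, 25 or 26 or without wild-type 4, 28 or 29, so it was called in 2 of the 8 fits that leave out 1 array. Its log2 fold change was 0.43 to 0.57 over those 8 fits, and in the 6 without the call 79 to 295 of all genes were called, against 539 with all arrays. The groups did not overlap in 5 members with GR-null higher, against 6.69% of genes, and in 2 with GR-null lower, against 6.30%. The members were mostly dim: 11 of the 45 had a mean above the median of all probe sets.

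**Figure D1:**
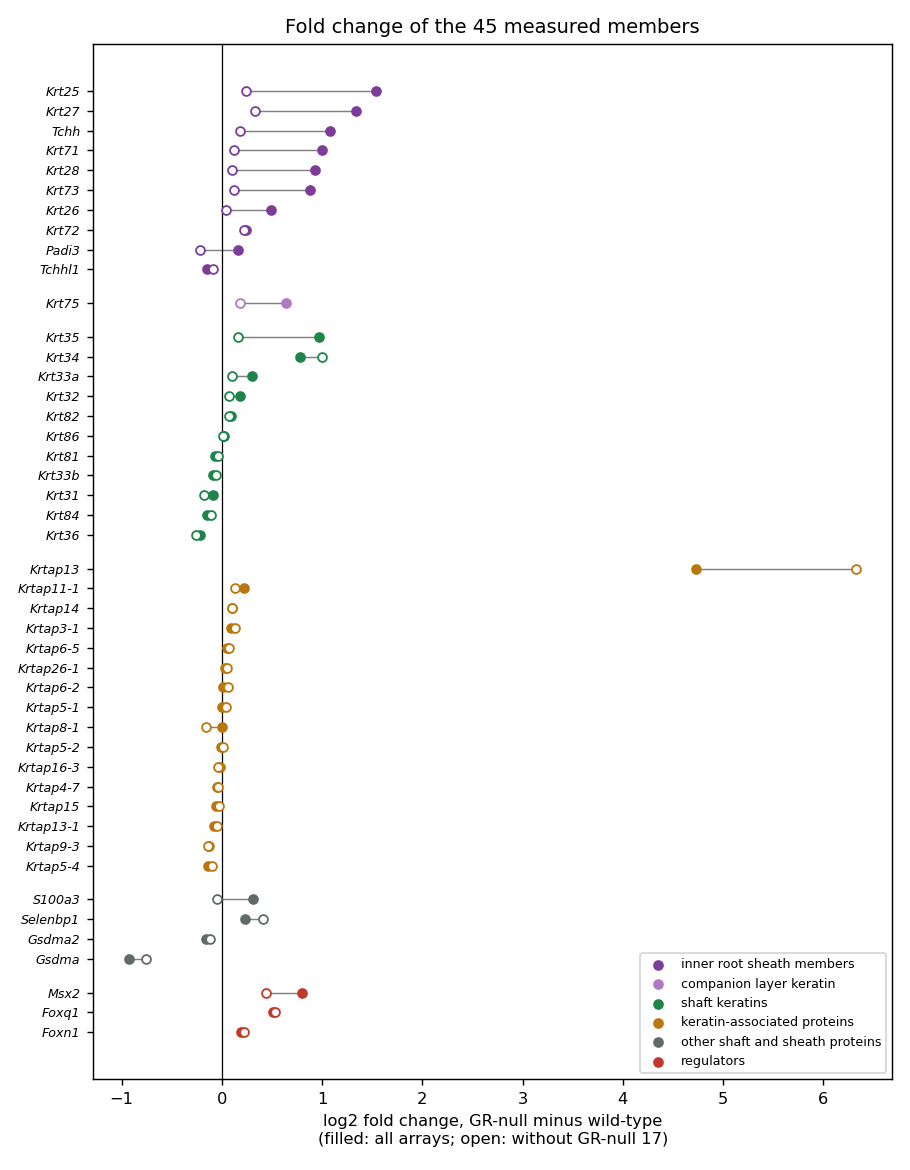
Log2 fold change, GR-null minus wild-type, of the 45 measured members, grouped by role, with all arrays (filled points) and without GR-null 17 (open points). The inner root sheath genes with the largest values move towards 0 without that array, with a list median of 0.91 with all arrays and 0.12 without it, while Krtap13 moves outward to 6.33.

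The type I inner root sheath keratins were far higher in GR-null 17 than in any other array. Krt25 (chromosome 11) read 6.78, 11.89, 7.86 and 5.54 log2 in GR-null 5, 17, 25 and 26, against 6.73, 6.70, 5.98 and 6.52 in wild-type 4, 6, 28 and 29. GR-null 17 was 5.41 log2 above the wild-type mean, GR-null 25 lay above every wild-type array, and GR-null 26 lay below every wild-type array. The log2 fold change of Krt25 was 1.53 ± 1.13 (SE, n = 4 per group, adjusted p = 0.490), and 0.24 ± 0.47 without GR-null 17 (adjusted p = 0.801).

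Krt27 read 5.995, 10.03, 6.11 and 5.91 log2 in GR-null 5, 17, 25 and 26, against 5.86, 5.47, 5.68 and 5.68 in the wild-type arrays in the order above. Its groups did not overlap, since the lowest GR-null array stood just over the highest wild-type array. The log2 fold change was 1.34 ± 0.82 (adjusted p = 0.397), and 0.33 ± 0.11 without GR-null 17 (adjusted p = 0.0901). Krt28 read 6.84, 9.95, 7.15 and 5.92 in the GR-null arrays, against 6.73, 6.67, 6.30 and 6.43 in the wild-type arrays. As in Krt25, GR-null 17 was highest, GR-null 25 second and GR-null 26 lowest. Krt26 read 4.33, 6.02, 4.29 and 4.12 in the GR-null arrays and 4.16 to 4.31 in the wild-type arrays. These 4 keratins follow one another in the annotation. Of the genes on either side of them, Krt24 read 5.47 in GR-null 17 and 5.07 to 5.58 in the other arrays, and Krt10 read 14.57 in GR-null 17 and 14.64 to 14.80 in the others.

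Their type II partners on chromosome 15 behaved in 2 ways. Krt71, which pairs with the type I sheath keratins, read 6.41, 10.02, 6.84 and 6.20 log2 in GR-null 5, 17, 25 and 26, against 6.42, 6.37, 6.46 and 6.21 in wild-type 4, 6, 28 and 29. The log2 fold change was 1.003 ± 0.73 (adjusted p = 0.486), and 0.12 ± 0.15 without GR-null 17 (adjusted p = 0.685). Krt73 read 6.46, 9.63, 7.19 and 6.13 in the GR-null arrays, against 6.64, 6.65, 6.29 and 6.27 in the wild-type arrays. In Krt71 and Krt73, as in Krt25 and Krt28, GR-null 17 was highest, GR-null 25 second and GR-null 26 lowest. Krt72 lies between them in the annotation and read 6.82, 6.82, 6.68 and 6.77 in the GR-null arrays, against 6.61, 6.38, 6.58 and 6.55 in the wild-type arrays. GR-null 17 did not stand out in Krt72, whose groups did not overlap. The difference on the log2 scale was 0.24 ± 0.08 (adjusted p = 0.126).

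The proteins that fill the sheath followed the keratins, except Tchhl1, whose probe set was dim. Tchh, the trichohyalin gene, read 5.52, 9.19, 5.97 and 5.35 log2 in GR-null 5, 17, 25 and 26, against 5.53, 5.10, 5.70 and 5.40 in the wild-type arrays. Its log2 fold change was 1.08 ± 0.74 (adjusted p = 0.458), and 0.18 ± 0.18 without GR-null 17 (adjusted p = 0.579). Padi3, the peptidylarginine deiminase that acts on trichohyalin, read 5.00, 6.51, 5.30 and 4.73 in the GR-null arrays, against 5.21, 5.37, 4.94 and 5.39 in the wild-type arrays. GR-null 17 was the highest there and the 3 other GR-null arrays lay in or below the wild-type range. Tchhl1, a trichohyalin-like gene, read 3.89, 3.58, 3.83 and 3.75 in the GR-null arrays and 3.88 to 3.93 in the wild-type arrays, so GR-null 17 was the lowest array for it. Its levels were the lowest of the inner root sheath genes, and whether its probe set detected any RNA was not tested. The companion layer keratin Krt75 read 5.97, 7.79, 5.98 and 5.90 in the GR-null arrays, against 5.79, 5.58, 5.80 and 5.90 in the wild-type arrays. The difference on the log2 scale was 0.65 ± 0.38 (adjusted p = 0.379), and 0.18 ± 0.09 without GR-null 17 (adjusted p = 0.257).

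Over the 10 inner root sheath genes 0 passed the threshold in either direction, with adjusted p from 0.126 to 0.845 by limma. At an unadjusted p under 0.05 limma gave 1 higher and 0 lower, against 10.5% and 11.1% of all genes. Without GR-null 17 again 0 passed the adjusted threshold, with adjusted p from 0.0901 to 0.853. The list's median fold change on the log2 scale was 0.91, and 0.12 when GR-null 17 was left out, beside -0.0045 and -0.0021 for all genes. GR-null 17 was the highest array for 9 of the 10 (15.0% of all genes) and over 1 log2 above all others for 8 (0.181% of all genes). In GR-null 17 these 8 lay from 1.28 to 5.41 log2 (2.44-fold to 42.5-fold) above the wild-type mean. In those 8 the mean of the other 3 GR-null arrays differed from the wild-type mean by -0.22 to 0.33 log2. GR-null 25 was second for 6 of the 10, and GR-null 26 was lowest for 6 of the 10. The mean of the list relative to wild-type was 0.12, 2.68, 0.44 and -0.24 log2 in GR-null 5, 17, 25 and 26, against 0.10, -0.001, -0.08 and -0.02 in wild-type 4, 6, 28 and 29.

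**Figure D2:**
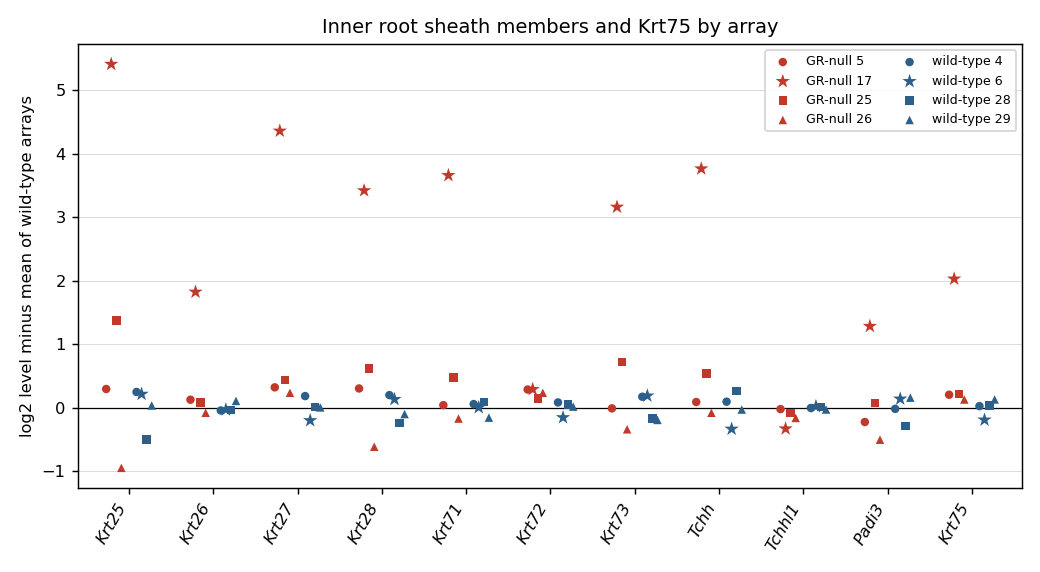
Log2 level of each inner root sheath gene and of Krt75 on each array, less the mean of the wild-type arrays of that gene. Red points are GR-null arrays and blue points wild-type arrays, with stars for the arrays with high Xist (GR-null 17 and wild-type 6). GR-null 17 lies 5.41 above the wild-type mean in Krt25, while in Krt72 it is level with GR-null 5 and in Tchhl1, a dim probe set, it is the lowest array.

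The shaft keratins differed less. Krt35, a type I keratin that appears early in the forming shaft, read 6.29, 9.40, 6.60 and 5.59 log2 in GR-null 5, 17, 25 and 26, against 5.98, 6.10, 5.91 and 6.03 in wild-type 4, 6, 28 and 29. It shared with Krt25 the order of the GR-null arrays, with 17 highest and 26 lowest. Its log2 fold change was 0.97 ± 0.68 (adjusted p = 0.469), and 0.16 ± 0.21 without GR-null 17 (adjusted p = 0.694). Krt33a, a cortex keratin, read 4.44, 5.47, 4.87 and 4.72 in the GR-null arrays and 4.36 to 4.73 in the wild-type arrays, and Krt32, a cuticle keratin, read 6.90, 7.29, 7.01 and 6.65 and 6.56 to 6.92. GR-null 17 was the highest array for both.

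Krt34, a cortex keratin, ran the other way among the GR-null arrays. It read 6.17, 5.50, 6.12 and 6.85 log2 in GR-null 5, 17, 25 and 26, against 5.21, 5.11, 5.80 and 5.41 in wild-type 4, 6, 28 and 29. GR-null 5, 25 and 26 lay above every wild-type array, and GR-null 17 lay within the wild-type range. The log2 fold change was 0.78 ± 0.26 (adjusted p = 0.135), and 0.9995 ± 0.22 without GR-null 17 (adjusted p = 0.0295). Krt36 read 6.07, 6.27, 6.19 and 6.10 in the GR-null arrays, against 6.56, 6.30, 6.35 and 6.30 in the wild-type arrays, and its groups did not overlap. The difference on the log2 scale was -0.22 ± 0.09 (adjusted p = 0.187). Krt81, the brightest shaft keratin probe set, read 7.33 to 7.50 in the GR-null arrays and 7.33 to 7.71 in the wild-type arrays.

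Of the 11 shaft keratins 0 passed the threshold. At an unadjusted p under 0.05 limma gave 1 higher (Krt34) and 1 lower (Krt36), against 10.5% and 11.1% of all genes. The list's median log2 fold change was 0.03, and 0.02 without GR-null 17. Leaving aside Krt32, Krt33a, Krt34 and Krt35, the 7 others had log2 fold changes from -0.22 to 0.09. In GR-null 17 these 7 lay from -0.28 to 0.19 log2 of the wild-type mean. By type, GR-null 17 was the highest array for 4 of 7 type I shaft keratins and for 0 of 4 type II, against 15.0% of all genes. The type II keratin Krt85 had no probe set to read. Only 1 of the 7 and 1 of the 4 had a mean above the median of all probe sets, so these counts cannot separate the types. Set beside the sheath, the median difference of GR-null 17 from the wild-type mean was 3.29 log2 over the 10 inner root sheath genes, 0.12 over the 11 shaft keratins and -0.06 over the 16 keratin-associated proteins. In the same order, 5 of 10, 2 of 11 and 1 of 16 had a mean above the median of all probe sets. How far dim probe sets account for this contrast was not tested.

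The keratin-associated proteins were even, with Krtap13 as the exception. Krtap13 (chromosome 16) read 8.70, 3.74, 8.33 and 13.34 log2 in GR-null 5, 17, 25 and 26, against 3.78, 3.86, 3.68 and 3.88 in wild-type 4, 6, 28 and 29. GR-null 5, 25 and 26 lay over 4 log2 above every wild-type array, and GR-null 17 lay within the wild-type range. Its log2 fold change was 4.73 ± 1.59 (adjusted p = 0.135), the largest of the 45 members, and 6.33 ± 1.05 without GR-null 17 (adjusted p = 0.0125). The 2 genes that follow it in the annotation, chosen after their values were seen, had the same pattern. 2310034C09Rik read 9.72, 4.13, 9.33 and 13.59 in the GR-null arrays and 3.96 to 4.41 in the wild-type arrays. 2310057N15Rik read 6.73, 3.79, 6.35 and 12.13 in the GR-null arrays and 3.48 to 3.66 in the wild-type arrays.

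The Krtap13 and 2310034C09Rik windows printed above lie on opposite strands and were 80.8% identical in a global alignment, with an unbroken shared run of 150 bases. The windows of the 17 other neighbours examined were 46.2% to 69.6% identical to that of Krtap13, with longest shared runs of 7 to 24 bases. Genes that were high in GR-null 5, 25 and 26 and not in GR-null 17, and genes that were not, lay in that range. The windows of 2310057N15Rik and 2310079G19Rik, which were, had 62.3% and 54.2% identity, and that of Krtap13-1, which was not, had 59.4%. Whether the probe sets of such related genes take up each other's transcripts was not tested, so these genes may not be separate measurements. The next measured genes on either side of Krtap13, 2310034C09Rik and 2310057N15Rik did not share the pattern. Krtap13-1, on the other side of Krtap13, read 4.36 to 4.56 in the GR-null arrays and 4.38 to 4.63 in the wild-type arrays. Krtap14, past 2310057N15Rik, read 4.05 to 4.25 in the GR-null arrays and 3.88 to 4.24 in the wild-type arrays. Beyond Krtap13-1, 5 places from Krtap13, 2310079G19Rik was again high in GR-null 5, 25 and 26 and not in GR-null 17, but GR-null 26 did not exceed GR-null 5. It read 8.25, 4.90, 7.90 and 8.11 in GR-null 5, 17, 25 and 26 and 4.78 to 5.26 in the wild-type arrays. The log2 fold change was 3.01 without GR-null 17 (limma, adjusted p = 8.07e-05) against 2.22 with it (adjusted p = 0.0991). Nearer to Krtap13, 2310061N02Rik read 6.04, 5.41, 6.06 and 6.38 in the GR-null arrays and 5.80 to 6.01 in the wild-type arrays. Its log2 fold change was 0.25 without GR-null 17 (limma, adjusted p = 0.182).

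**Figure D3:**
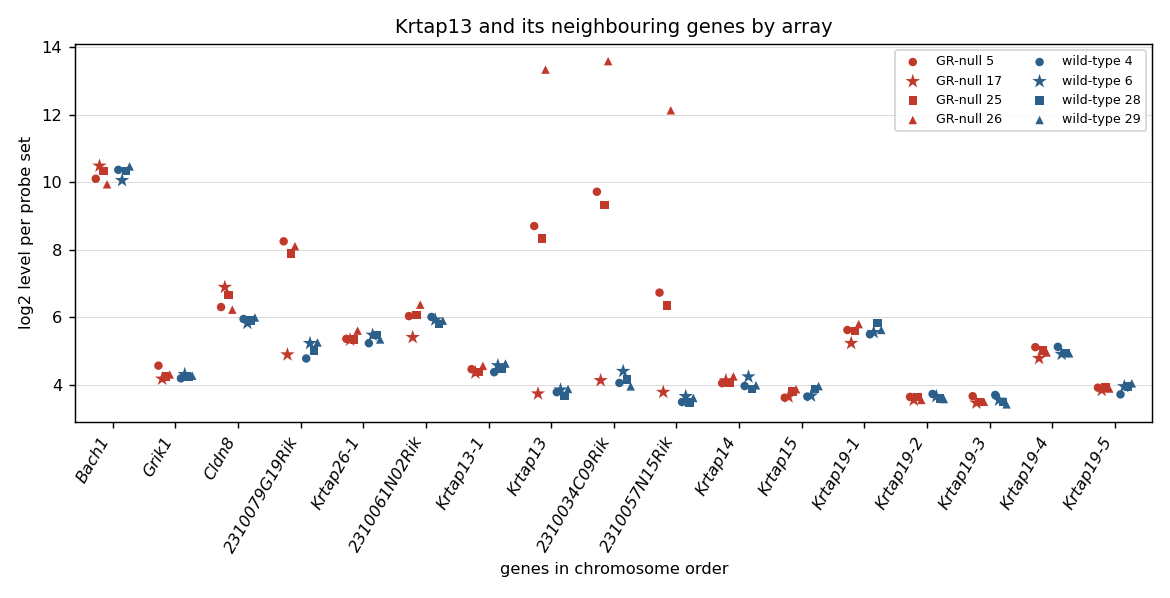
Log2 level per probe set, on each array, of Krtap13 and of the measured genes up to 10 places away on chromosome 16, in the order of the RefSeq annotation. Red points are GR-null arrays and blue points wild-type arrays, with stars for GR-null 17 and wild-type 6. Krtap13, 2310034C09Rik, 2310057N15Rik and 2310079G19Rik are high in GR-null 5, 25 and 26 and not in GR-null 17, while Krtap13-1, Krtap14 and Krtap15 are level.

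The 15 other keratin-associated protein genes had log2 fold changes from -0.13 to 0.22, with adjusted p from 0.304 to 0.999, and their values lay between 3.45 and 6.81 log2 on every array. Krtap5-1, the brightest of them on average, read 6.43, 6.46, 6.69 and 6.66 in GR-null 5, 17, 25 and 26, against 6.47, 6.50, 6.81 and 6.44 in the wild-type arrays. The groups overlapped fully, and the 95% interval of its log2 fold change was -0.24 to 0.25. Krtap3-1 read 6.13 to 6.32 in the GR-null arrays and 5.999 to 6.24 in the wild-type arrays. Krtap26-1 read 5.34 to 5.61 and 5.24 to 5.48, and Krtap5-4 read 4.70 to 5.00 and 4.87 to 5.04. Krtap11-1, a keratin-associated protein of the high-sulphur kind, read 4.08, 4.49, 4.20 and 4.07 in the GR-null arrays and 3.88 to 4.18 in the wild-type arrays, with GR-null 17 highest. Of all 16, 0 passed the threshold, and the median log2 fold change was 0.0037. At an unadjusted p under 0.05 limma gave 1 higher and 0 lower, against 10.5% and 11.1% of all genes. The other 22 Krtap genes on the array had a median of -0.01, from -0.18 to 0.20, with 0 past the threshold and 0 higher and 1 lower at an unadjusted p under 0.05.

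**Figure D4:**
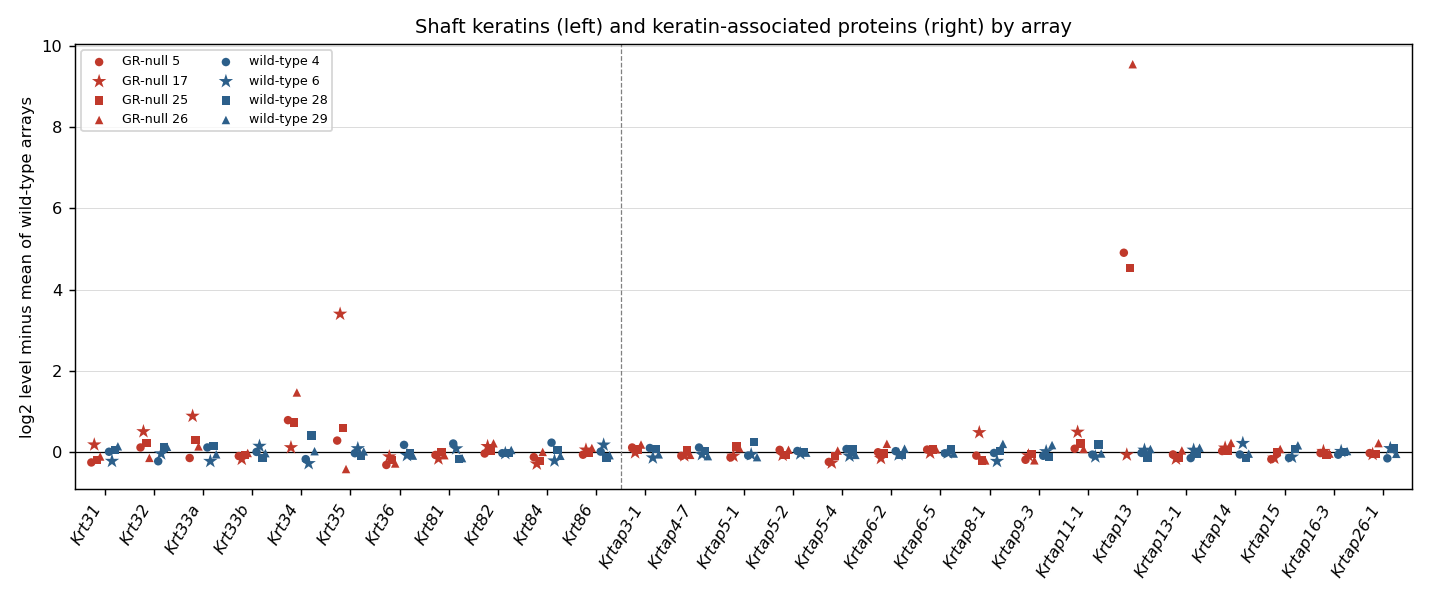
Log2 level of each shaft keratin (left of the dashed line) and keratin-associated protein (right) on each array, less the mean of the wild-type arrays of that gene. Red points are GR-null arrays and blue points wild-type arrays, with stars for GR-null 17 and wild-type 6. Krt35 is high in GR-null 17, Krt34 and Krtap13 are high in GR-null 5, 25 and 26, and the 15 other keratin-associated proteins have log2 fold changes from -0.13 to 0.22.

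Among the other proteins, Gsdma was the member with the largest negative fold change. Gsdma, a gasdermin of the epidermis and follicle, read 8.24, 7.85, 8.83 and 8.54 log2 in GR-null 5, 17, 25 and 26, against 8.99, 8.91, 9.93 and 9.32 in wild-type 4, 6, 28 and 29. Every GR-null array lay below every wild-type array. The log2 fold change was -0.92 ± 0.26 (adjusted p = 0.0859). At its dimmer probe set it read 5.96, 6.27, 6.21 and 6.07 in the GR-null arrays, against 6.85, 6.94, 7.95 and 7.39 in the wild-type arrays, again without overlap. There the log2 fold change was -1.16 ± 0.22 (limma, adjusted p = 0.0316 over all probe sets).

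Gsdma2, a related gasdermin gene, read 5.47 to 5.77 in the GR-null arrays and 5.59 to 5.89 in the wild-type arrays. S100a3, a calcium-binding protein of the hair cuticle, read 4.92, 6.25, 4.83 and 4.80 in the GR-null arrays and 4.69 to 5.28 in the wild-type arrays, so that GR-null 17 was again the highest. The difference on the log2 scale was 0.31 ± 0.31 (adjusted p = 0.637), and -0.04 without GR-null 17. Selenbp1, a selenium-binding protein, read 9.33, 8.67, 9.53 and 9.35 in the GR-null arrays, against 8.93, 8.71, 9.01 and 9.31 in the wild-type arrays, with GR-null 17 lowest of all 8. Its log2 fold change was 0.23 ± 0.19 (adjusted p = 0.558). Of these 4 genes 0 passed the threshold. At an unadjusted p under 0.05 limma gave 0 higher and 1 lower (Gsdma), against 10.5% and 11.1% of all genes.

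The regulators included the call. Foxq1, the forkhead gene mutated in satin mice, read 6.22, 6.29, 6.48 and 6.37 log2 in GR-null 5, 17, 25 and 26, against 5.59, 6.02, 5.88 and 5.82 in wild-type 4, 6, 28 and 29, without overlap. It rose by 0.51 ± 0.10 (1.42-fold, adjusted p = 0.0394), and in GR-null 17 it was no higher than in GR-null 25. At its dimmer probe set it read 3.97, 3.97, 4.34 and 3.93 in the GR-null arrays and 3.42 to 3.80 in the wild-type arrays, with a log2 fold change of 0.41 ± 0.12 (limma, adjusted p = 0.0856 over all probe sets).

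Msx2, a homeobox gene of the hair matrix and shaft, read 7.48, 8.96, 7.56 and 7.57 in the GR-null arrays, against 7.01, 7.20, 7.07 and 7.09 in the wild-type arrays. All GR-null arrays lay above all wild-type arrays, and GR-null 17 lay over 1 log2 above the rest. The log2 fold change was 0.80 ± 0.30 (adjusted p = 0.162), and 0.45 ± 0.08 without GR-null 17 (adjusted p = 0.0145). Its other probe set was dim, at 3.76 to 4.04 over all arrays, and had a log2 fold change of 0.03. Foxn1, the forkhead gene mutated in nude mice, read 5.80, 5.96, 6.32 and 6.11 in the GR-null arrays, against 5.67, 5.96, 5.99 and 5.79 in the wild-type arrays, with a log2 fold change of 0.20 ± 0.13 (adjusted p = 0.418). At its other probe set it read 5.78, 5.70, 5.75 and 5.60 in the GR-null arrays, against 5.15, 5.27, 5.10 and 5.10 in the wild-type arrays. There the groups did not overlap and the log2 fold change was 0.55 ± 0.08 (limma, adjusted p = 0.0145 over all probe sets).

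**Figure D5:**
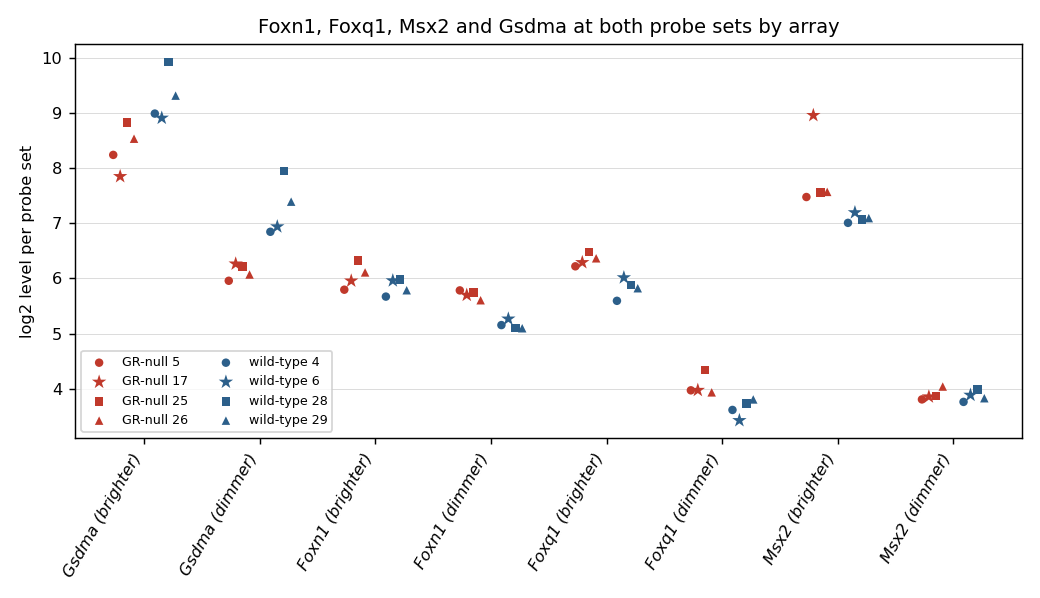
Log2 level on each array of Gsdma, Foxn1, Foxq1 and Msx2 at their brighter and dimmer probe sets. Red points are GR-null arrays and blue points wild-type arrays, with stars for GR-null 17 and wild-type 6. The groups are apart at both probe sets of Gsdma and Foxq1, and at 1 of the 2 probe sets of Foxn1 and of Msx2.

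Other genes of the follicle, taken from lists of 18 regulators and 45 structural genes, gave 1 higher and 0 lower among the 16 measured regulators, and 0 higher and 2 lower among the 40 measured structural genes. Limma gave 2 higher and 1 lower regulators and 4 higher and 5 lower structural genes at an unadjusted p under 0.05. Over all genes those shares were 10.5% higher and 11.1% lower, and at the adjusted threshold 1.40% and 1.56%. Their median log2 fold changes were 0.04 and -0.01. The regulator past the threshold was Elf5, an epithelial ETS factor, at 8.12, 6.86, 8.59 and 8.97 log2 in GR-null 5, 17, 25 and 26, against 4.64, 5.03, 4.83 and 4.70 in the wild-type arrays (log2 fold change 3.33 ± 0.38, adjusted p = 0.00617). The structural genes were corneodesmosin (Cdsn), which fell by 1.50 ± 0.21 (adjusted p = 0.0128), and the deiminase Padi2, which fell by 0.77 ± 0.15 (adjusted p = 0.0337). GR-null 17 was the highest array for 9 of the 16 regulators, against 15.0% of all genes. Vdr, the vitamin D receptor needed for the hair cycle, read 6.91, 8.61, 6.98 and 6.79 in the GR-null arrays and 6.77 to 7.01 in the wild-type arrays. Hoxc13, a homeobox regulator of hair keratins, read 6.004, 7.47, 6.22 and 6.16 in the GR-null arrays and 6.17 to 6.60 in the wild-type arrays.

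Markers of other cells of the follicle and skin were read beside the members. Over all genes 1.40% were called higher and 1.56% lower, and 10.5% and 11.1% at an unadjusted p under 0.05 by limma. GR-null 17 was the highest array for 15.0% of all genes. Of 9 melanocyte markers, Tyr and Pmel were higher in GR-null skin and 0 lower (5 higher and 0 lower at an unadjusted p under 0.05), with a list median of 0.43, and GR-null 17 was the highest array for 6. The list mean relative to wild-type was 0.32, 0.80, 0.52 and 0.37 log2 in GR-null 5, 17, 25 and 26, against -0.15 to 0.10 in the wild-type arrays. Of 10 dermal papilla markers 0 passed the threshold (1 higher and 1 lower at an unadjusted p under 0.05), and the list mean was 0.04, 0.18, 0.14 and -0.09 in the GR-null arrays, against -0.12 to 0.18 in the wild-type arrays. Of 22 skeletal muscle markers 0 were higher and 5 lower, with a list median of -0.56, and at an unadjusted p under 0.05 limma gave 0 higher and 13 lower. Without GR-null 17, 14 of the 22 muscle markers passed the threshold as lower, against 5.21% of all genes. Of 8 interfollicular keratinocyte markers 0 were higher and 2 lower, Flg and Lor (0 and 3 at an unadjusted p under 0.05). Of 5 adipocyte, 5 endothelial and 7 mast cell and macrophage markers 0 passed (at an unadjusted p under 0.05, 0, 0 and 2 higher and 0, 3 and 0 lower). The mean of 5 adipocyte markers was 0.05, 1.24, -0.51 and -1.06 in the GR-null arrays and 1.26, -0.87, -1.16 and 0.76 in wild-type 4, 6, 28 and 29. The inner root sheath means were 0.12, 2.68, 0.44 and -0.24 in the GR-null arrays and 0.10, -0.001, -0.08 and -0.02 in wild-type 4, 6, 28 and 29. The part of the cells read by these marker lists, and of muscle, in the values of GR-null 17 was not tested.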

How the data were processed

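RNA from whole dorsal skin was hybridised as biotin-labelled cRNA, 1 array per sample. The deposited log2 values per probe set were made by the authors with RMA, per the submitters' processing notes, which subtracts background, equalises the arrays' distributions and summarises probes. No version of RMA is stated in the sources used. RMA can understate differences between dim values, and most members were dim. Array medians were 6.46 to 6.52, and the number of arrays limits the precision.

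Of 45101 probe sets 64 controls were left out. Limma 3.58.1 in R 4.3.3 (lmFit, eBayes, two-sided, with genotype alone in the model) was run on the other 45037, and p-values were adjusted by Benjamini-Hochberg over 18193 genes with a probe set annotated to them alone (the brightest on average). Symbols of 18032 genes were updated through RefSeq's GRCm38.p6 genes. The fit was tested on simulated data.

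The members and lists were chosen with earlier results of these data known, so lists carry counts and medians and no test. Named members are those past the threshold, the 4 brightest and the 3 with the smallest p of each role, and Krt75. Krt26, Tchh, Padi3 and other genes with values here were named after their values were seen.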

Additional observations from a re-analysis of the deposited data

Results flagged for a closer look

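Among the 27 members named by rule, each group of 4 arrays was examined for an array whose gap to its nearest neighbour took up more of the group's range than Dixon's 95% critical value. Of 54 such groups 6 passed. All 54 were read on the same arrays, and the members were named partly by their level and p in these data. The groups are therefore not independent, and their count cannot be compared with a chance rate. In 5 of the 6 groups that passed the array was GR-null 17, as the highest of the GR-null arrays. The ratios were 0.951 in Krt27, 0.831 in Krt71, 0.955 in Krt75, 0.916 in S100a3 and 0.937 in Msx2. The sixth was Krtap26-1 with a ratio of 0.896, where GR-null 26 was the highest at 5.61 log2, beside 5.34 to 5.36 in the other GR-null arrays. No wild-type group passed. Krt25, Krt28, Krt73 and Krt35 were examined too and stayed below the critical value.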

How the results depend on the processing

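No paired analysis was made, because the groups share no label numbers and the labels do not say which arrays came from the same litter. A part of litter in the values was therefore not tested. The call count of 1 higher member was the same with quantile normalization, a trend and robust prior, the Y-linked level as a covariate, without cross-hybridising probe sets, and with the muscle list as a covariate, where the member was Msx2 in place of Foxq1. It was 0 with dim probe sets left out, which drops Foxq1 (11 members tested), 2 with array weights, 2 with the mean of a gene's probe sets, 0 at a threshold of 0.01 and 5 at an unadjusted p under 0.05. Leaving out each array gave 0 to 4, with 4 without GR-null 17, 1 without wild-type 6 and 0 without any other. The count of 0 lower members became 1 with the mean of probe sets (Gsdma) and 2 at an unadjusted p under 0.05. With the muscle covariate, whose values did not overlap between the genotypes, the inner root sheath median was an extrapolated 3.32. It was 0.12 to 1.34 leaving out each array. The medians of the shaft keratins and keratin-associated proteins stayed between -0.04 and 0.10. Added after seeing the data, leaving out both arrays with high Xist gave 4 higher members. Of 442 values of named members 411 kept direction and side of the threshold, 7 lost a call and 10 gained one. The other 14 changed sign and passed the threshold in neither fit. With the muscle covariate these were Krtap3-1 (-0.0463), Krtap5-1 (-0.0613), Krtap26-1 (-0.0390) and Selenbp1 (-0.22), the last also without _x_at and _s_at probe sets (-0.0291). Over the fits that leave out 1 array, Krt81 ranged from -0.126 to 0.000794, Krtap5-1 from -0.0384 to 0.0905, Krtap26-1 from -0.0351 to 0.0624 and S100a3 from -0.0431 to 0.439. All genes called numbered 539 in the fit as reported, 79 to 1640 leaving out 1 array (1640 without GR-null 17), 1944 with array weights, 31 with the muscle covariate, 884 with the mean of probe sets and 1715 without both arrays with high Xist. The causes were not tested.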

Other observations

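The probe sets that Krtap3-2 and Krtap3-3 share read 3.32 to 3.78 log2 in the GR-null arrays and 3.33 to 3.76 in the wild-type arrays at one, and 3.91 to 4.25 and 3.80 to 4.03 at the other. The probe set that Krtap6-1 shares with Gm10228 and 1110025L11Rik read 3.73 to 3.83 in the GR-null arrays and 3.81 to 4.22 in the wild-type arrays. GR-null 17 was the highest array at 0 of these 3, and none of the 3 differed by over 0.21 log2 between genotypes. GR-null 26 was the other array with many genes over 1 log2 above the other 7, 31 genes, of which 1, Krtap13, was a member. GR-null 5 and 25 had 0 such genes, and the wild-type arrays 6, 3, 4 and 5 in wild-type 4, 6, 28 and 29.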
